A study of Mus musculus with 6 samples.

Results

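The genes described here encode secreted growth factors that keep neurons alive, and their receptors: the neurotrophins Bdnf and Ntf3, the growth factor Gdnf, the receptor kinases Ntrk2, Ntrk3 and Ret, and the neurotrophin receptors Ngfr and Sort1. They were chosen by gene name from the platform annotation, as every spot of the array listed for one of these 8 genes. The annotation gave 14 spots of 44290 in all, for 7 of the 8 genes. Ntf3 had no spot listed for it in that annotation and was not analysed here. All 14 spots had a value on each of the 6 arrays, and no filter on low values was applied.

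The cells were N18, a mouse neuroblastoma line, which is a tumour line of the sympathetic nerve lineage. On each of 6 two-colour oligonucleotide arrays, RNA of N18 cells transfected with an siRNA against Nrsf was set directly against RNA of N18 cells transfected with a scrambled siRNA. Nrsf is another name of Rest, a zinc finger repressor that binds a DNA element near many neuronal genes. Arrays 1 to 3 carried the siRNA RNA in the Cy5 dye, and arrays 4 to 6 carried it in Cy3. All cells were of this 1 line and all had been transfected, so no untransfected cells enter the comparison. Each value is a log2 ratio of siRNA over scrambled, so that 0 means an equal signal in both. The base of the logarithm and the numerator are not stated in the sources used here. Both were taken as likely, and with the opposite numerator each rise given here would be a fall. With the numerator used, Rest, the target of the siRNA, was below 0 on all 6 arrays, and with the opposite one it would have risen. A ratio gives no level, so a spot with little signal in both samples cannot be told from a gene with an equal level in both.

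As background, mature neurotrophins signal through Trk receptor tyrosine kinases, Bdnf mainly through the product of Ntrk2 and Ntf3 mainly through that of Ntrk3. Ngfr encodes p75, which binds all neurotrophins and their precursors, and Sort1 encodes sortilin, a sorting receptor that pairs with p75 to bind precursors. Gdnf signals through a GPI-anchored co-receptor of the Gfra family and the receptor kinase Ret, and sympathetic neuroblasts are known to use Ret. Bdnf is widely described as a gene that Rest holds down.

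Rest itself, the silenced gene, lay at -0.16, -0.34, -0.33, -0.27, -0.50 and -0.49 on arrays 1 to 6. All 6 arrays were below 0, with array 1 nearest to it, and the mean was -0.35 ± 0.13 (SD, n = 6, adjusted p = 0.00353). One of its 3 spots was at -0.05 (adjusted p = 0.751), and the others were at -0.44 and -0.55 (adjusted p = 0.00263 and 0.000345). On array 1 the spot that was not called read 0.24, and the others read -0.23 and -0.48. Adjusted p-values here and below are from limma with Benjamini-Hochberg adjustment over all 19019 genes, or over all 43530 spots where a spot is meant, and the threshold was 0.05. Array 1 also stood apart from the rest over all genes, with correlations of 0.29 to 0.37 with the other arrays. Those correlated with each other at 0.54 to 0.82. Over genes the 5th and 95th percentiles of array 1 were -0.53 and 0.14. On the other arrays they were -0.21 to -0.26 and 0.24 to 0.31, so array 1 reached lower over the whole array. Markers of other cell types did not pass the test: 0 of 11 measured Schwann cell and glial markers and 0 of 12 fibroblast markers, with 1 and 2 at an unadjusted p under 0.05 in limma. Their smallest p-values belonged to S100b (0.09 ± 0.11) and Vim (-0.08 ± 0.06). Of 12 sympathetic identity genes, 4 rose and 1 fell, where 5.88% of all genes rose and 9.11% fell. They included Chgb (0.70 ± 0.24), Phox2a (0.44 ± 0.22) and Chga (0.21 ± 0.15), and Gata3 was the one that fell (-0.51 ± 0.15). The 7 not called were Th (0.018), Dbh (0.043), Slc18a1 (0.025), Slc6a2 (0.0145), Gata2 (-0.016), Ddc (-0.08) and Isl1 (-0.10). At an unadjusted p under 0.05 in limma, 2 were lower, Gata3 and Ddc. The number of sympathetic identity genes that rose was 4 without array 1 and 3 without array 6. It was 2 without array 2 or 3 and 1 without array 4 or 5. Of all genes, 25.9% were called without array 1, and 9.51%, 10.6%, 8.21%, 5.87% and 6.38% without arrays 2 to 6 in turn.

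Of the 7 measured genes, 2 rose past the threshold, Ngfr and Sort1, and 0 fell in limma (1 lower gene, Ntrk3, at an unadjusted p under 0.05). With any 1 of arrays 2 to 6 left out, 0 genes rose (3 at an unadjusted p under 0.05). In those runs 9.51%, 10.6%, 8.21%, 5.87% and 6.38% of all genes were called in either direction. With all 6 arrays, 5.88% of genes over the whole array were called higher and 9.11% lower, 15.0% together. At the level of spots, 2 of the 14 rose, 1 of Ngfr and 1 of Sort1, and 0 fell in limma (1 lower at an unadjusted p under 0.05), beside 4.21% of all spots that were higher, 6.85% that were lower and 11.1% called in either direction. The ligand genes Bdnf and Gdnf and the Trk receptor gene Ntrk2 had mean log2 ratios within 0.03 of 0. Ret lay above 0 on all 6 arrays without passing the test. In the order of their mean log2 ratios the genes were Sort1 (0.20), Ngfr (0.19), Ret (0.10), Gdnf (0.026), Ntrk2 (0.0036), Bdnf (-0.0038) and Ntrk3 (-0.07). The 95% intervals of neighbours in that order overlapped in every case, and differences between genes were not tested. The median over the 7 genes was 0.026, and that over all genes was 0.0025.

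**Figure D1:**
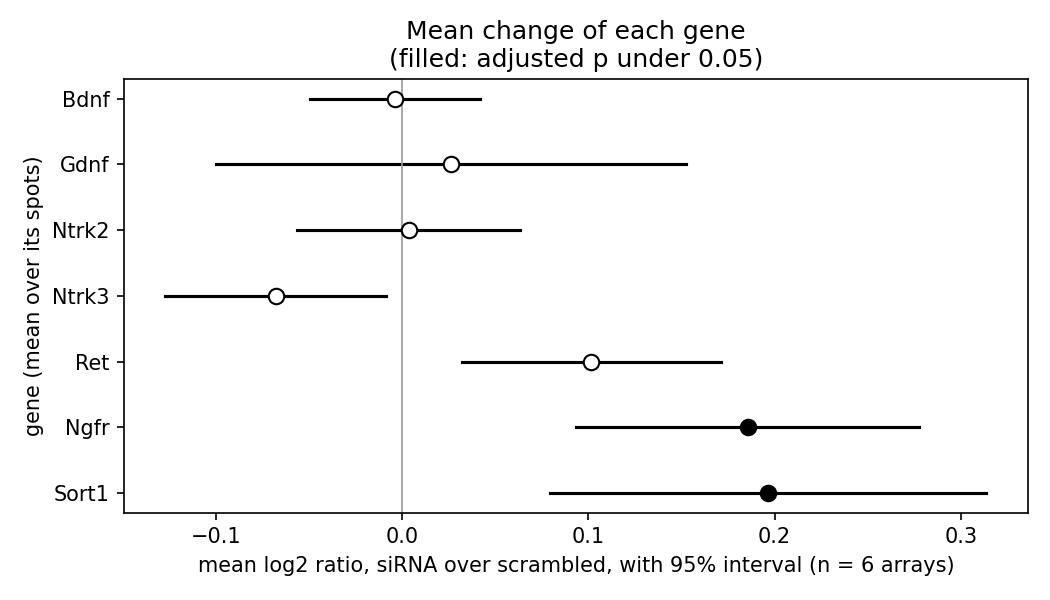
Mean log2 ratio of siRNA over scrambled on the horizontal axis for each of the 7 measured genes, averaged over its spots, with its 95% interval from limma (n = 6 arrays). Filled points, for Ngfr and Sort1, passed the threshold of 0.05, and open points did not, with Bdnf and Ntrk2 closest to 0.

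**Figure D2:**
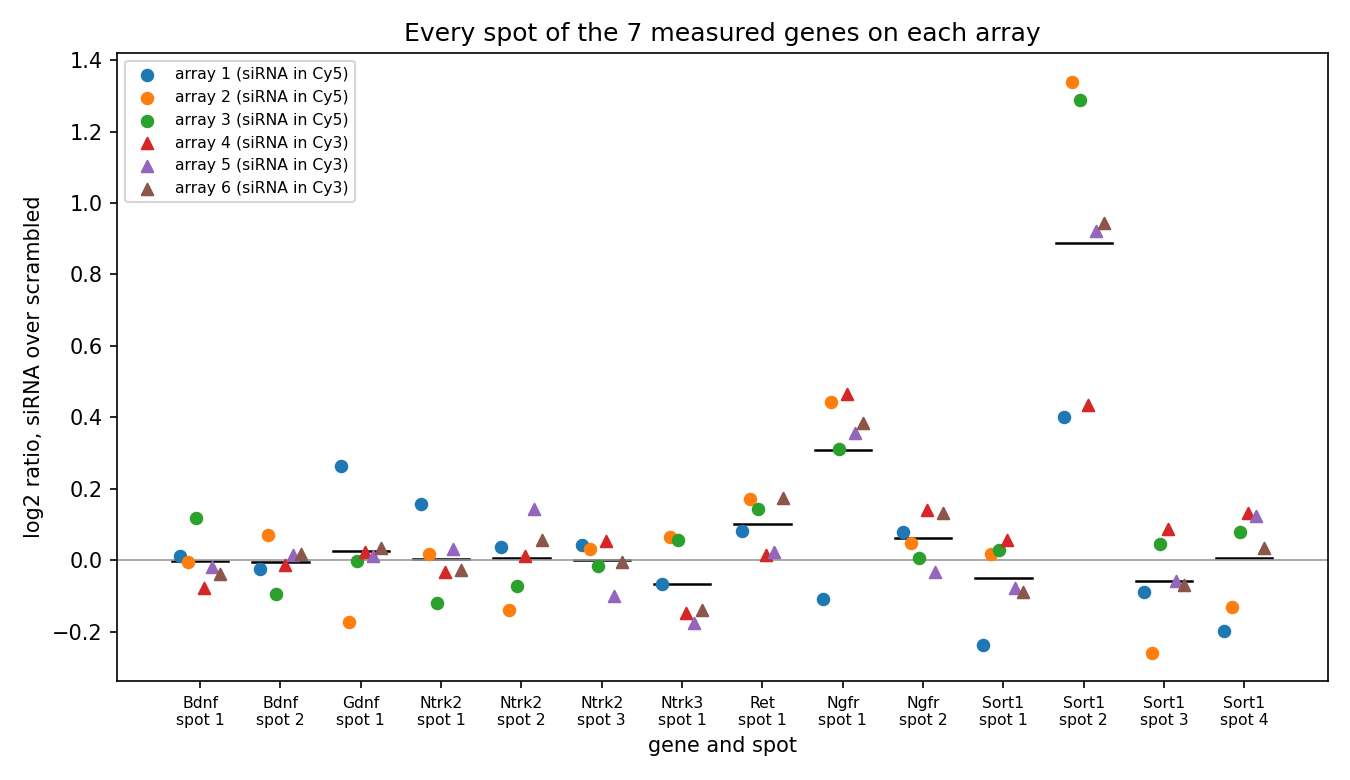
Log2 ratio of siRNA over scrambled on the vertical axis for each of the 14 spots, with a circle for each array that had the siRNA sample in Cy5, a triangle for each with it in Cy3, and a bar at the mean of the 6. Spot 2 of Sort1 lies between 0.40 and 1.34, above all values of the other 3 spots of Sort1, and spot 1 of Ngfr lies above 0.3 on every array except array 1.

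Among the ligands, Bdnf, which supports the survival of sensory neurons and synaptic plasticity, showed no change that could be called. Averaged over its 2 spots, it lay at -0.0065, 0.0315, 0.0105, -0.046, -0.0020 and -0.0105 on arrays 1 to 6. The arrays fell on both sides of 0, 2 above and 4 below, and none was farther from it than 0.05. The mean log2 ratio was -0.0038 ± 0.026 (SD, n = 6, adjusted p = 0.946), with a 95% interval of -0.050 to 0.042. On the ratio scale that interval runs from 96.6% to 102.9% of the scrambled signal. By themselves the 2 spots had wider intervals, -0.064 to 0.060 and -0.072 to 0.060. As these are ratios, an equal level cannot be told from little signal in both samples. In size the mean of Bdnf was smaller than that of most genes, at percentile 7.09 of all 19019.

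Both spots of Bdnf were listed for transcript NM_007540. The first lay at 0.011, -0.0060, 0.12, -0.08, -0.018 and -0.039 on arrays 1 to 6, with a mean of -0.0020 (adjusted p = 0.986). The second lay at -0.024, 0.07, -0.10, -0.015, 0.014 and 0.018, with a mean of -0.0057 (adjusted p = 0.955). On array 3 the first spot was the highest of its arrays and the second the lowest of its own, so the 2 spots did not vary together there. Bdnf was not called under any of the alternative settings of the model, and with single arrays left out its mean stayed between -0.0088 and 0.0028.

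Gdnf, the ligand of Ret and its co-receptors, rested on 1 spot. It lay at 0.26, -0.17, -0.0030, 0.022, 0.012 and 0.035 on arrays 1 to 6. The 3 arrays with the siRNA sample in Cy3 were all slightly above 0, while arrays 1 and 2, both with it in Cy5, lay far apart on opposite sides. The mean was 0.026 ± 0.14 (SD, n = 6, adjusted p = 0.847). Its 95% interval, -0.10 to 0.15, was the widest of the 7 genes in the model and covers 93.3% to 111% of the scrambled signal.

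Of the receptor kinases, Ntrk2, which encodes the Bdnf receptor TrkB, was flat on each of 3 spots listed for 3 different transcripts. The gene mean lay at 0.08, -0.031, -0.07, 0.0103, 0.024 and 0.0083 on arrays 1 to 6. The Cy3 arrays stayed within 0.03 of 0 and the Cy5 arrays lay on both sides. The spots listed for NM_001025074, AK018789 and NM_008745 had means of 0.0038 ± 0.09, 0.0060 ± 0.10 and 0.00083 ± 0.056 (SD, n = 6), with adjusted p-values of 0.980, 0.958 and 0.994. Ntrk2 is known to give a full-length kinase and a truncated form, and which form each spot reads was not resolved here. For the gene, the mean was 0.0036 ± 0.050 (adjusted p = 0.963), with a 95% interval of -0.056 to 0.06.

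Ntrk3, which encodes the Ntf3 receptor TrkC, was the lowest of the genes and rested on 1 spot. It lay at -0.07, 0.07, 0.06, -0.15, -0.18 and -0.14 on arrays 1 to 6. All 3 arrays with the siRNA sample in Cy3 were lower than any array with it in Cy5, and the orientations did not overlap. The mean was -0.07 ± 0.11 (SD, n = 6, adjusted p = 0.137). The Cy3 arrays averaged -0.15 ± 0.019, which by themselves gave an adjusted p of 0.00825 in limma, and the Cy5 arrays 0.018 ± 0.07 (SD, n = 3 each). The dye term of the model had an adjusted p of 0.456 for this gene, so a difference between orientations was not called either.

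Ret, the signalling receptor for Gdnf, also rested on 1 spot. It lay at 0.08, 0.17, 0.14, 0.014, 0.024 and 0.18 on arrays 1 to 6. Every array was above 0, as for 6.30% of all genes, and arrays 4 and 5 were close to it. The mean was 0.10 ± 0.07 (SD, n = 6), or 1.07-fold, and missed the threshold with an adjusted p of 0.0659. Without array 1 it passed (mean 0.11, adjusted p = 0.0228), and without any other single array the adjusted p lay between 0.107 and 0.186.

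Of the receptors that bind neurotrophin precursors, Ngfr rose. Averaged over its 2 spots, it lay at -0.0145, 0.25, 0.16, 0.30, 0.16 and 0.26 on arrays 1 to 6. Arrays 2 to 6 were all above 0.15, and array 1 alone was below 0. The mean was 0.19 ± 0.11 (SD, n = 6), or 1.14-fold, with an adjusted p of 0.0228. Within the Cy5 arrays it was 0.13 ± 0.13 and within the Cy3 arrays 0.24 ± 0.07 (SD, n = 3 each). The call was kept without array 1 (0.22, adjusted p = 0.000638) and lost without array 2, 3, 4, 5 or 6, where the adjusted p was between 0.0613 and 0.0940.

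The 2 spots of Ngfr, both listed for transcript NM_033217, differed in size. The first lay at -0.11, 0.44, 0.31, 0.47, 0.36 and 0.39 on arrays 1 to 6 and had a mean of 0.31 ± 0.21 (SD, n = 6, adjusted p = 0.0309). The second lay at 0.08, 0.05, 0.0050, 0.14, -0.033 and 0.13, with a mean of 0.06 ± 0.07 (adjusted p = 0.343). On array 1 the first spot was the lower of the pair, and on arrays 2 to 6 it was the higher by a wide margin.

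The RefSeq promoter table, of build GRCm38.p6, held windows from 250 bases before to 50 after a start for 5 of the 8 genes, 13 windows in all. The window of Ngfr is shown because Ngfr rose, and 1 of the 7 windows of Bdnf because Bdnf is the gene most often tied to Rest. Of the Bdnf windows it is the one with the most GC boxes. Capitals mark the GC box GGGCGG on either strand.
Ngfr, chr11:95587649-95587948, minus strand: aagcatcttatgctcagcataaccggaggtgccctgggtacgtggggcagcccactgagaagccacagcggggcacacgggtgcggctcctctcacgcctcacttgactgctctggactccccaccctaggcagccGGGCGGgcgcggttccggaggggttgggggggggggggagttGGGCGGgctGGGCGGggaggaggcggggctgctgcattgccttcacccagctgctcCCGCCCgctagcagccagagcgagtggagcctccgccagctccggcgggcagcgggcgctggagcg
Bdnf, chr2:109676782-109677081, plus strand: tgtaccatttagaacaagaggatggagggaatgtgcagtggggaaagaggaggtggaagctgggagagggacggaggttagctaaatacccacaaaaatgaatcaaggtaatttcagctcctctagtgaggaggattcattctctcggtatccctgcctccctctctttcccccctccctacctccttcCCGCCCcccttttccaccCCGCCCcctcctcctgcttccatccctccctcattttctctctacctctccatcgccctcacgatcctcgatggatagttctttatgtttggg
The Ngfr window held 4 GC boxes and was 71.7% G or C, beside a median of 52.7% over all 32851 windows, of which 35.7% held at least 1 GC box. The shown Bdnf window held 2 and was 53.0% G or C. A core of the Rest element, AGNACC and GGANAG spaced by 2 bases, was searched on both strands, together with its parts TCAGCACC and GGACAGC, which may overlap it. None of these letters occurred in the 13 windows, and 0.210%, 1.65% and 6.56% of all windows held them. A match in a window is a description of its letters, and their absence says nothing about binding outside it.

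Sort1 also rose as a gene mean, and this rested on 1 of its 4 spots. The gene mean lay at -0.0315, 0.24, 0.36, 0.18, 0.23 and 0.20 on arrays 1 to 6. Arrays 2 to 6 were all above 0.15, and array 1 was just below 0, as for Ngfr. On array 1 the spot that rose was at 0.40, and the others were at -0.24, -0.09 and -0.20. The gene mean below 0 there thus came from the spots that were not called. The mean was 0.20 ± 0.13 (SD, n = 6), or 1.15-fold, with an adjusted p of 0.0419. Without array 1 it was 0.25 (adjusted p = 0.000178), and without array 2, 3, 4, 5 or 6 the call was lost, with adjusted p-values of 0.0924 to 0.153.

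All 4 spots of Sort1 were listed for transcript NM_019972. The second spot lay at 0.40, 1.34, 1.29, 0.44, 0.92 and 0.94 on arrays 1 to 6, above 0 on every array, as for 5.06% of all spots. Its mean was 0.89 ± 0.40 (SD, n = 6, adjusted p = 0.00806), and its mean ranked 93 from the top among 43530 spots. With single arrays left out its mean stayed between 0.81 and 1.04. The adjusted p in limma then lay between 6.31e-06 and 0.0535, so the call of this spot was not kept in every run. It was kept without array 2 (0.0295) and without array 3 (0.0308). The other 3 spots ranged from -0.26 to 0.13 over all arrays, with means of -0.05, -0.06 and 0.0060 and adjusted p-values of 0.640, 0.591 and 0.968. Their values did not overlap with those of the second spot on any array. With the median over spots in place of the mean, Sort1 was at -0.0028 (adjusted p = 0.978), so the gene's call depended on that spot. Such disagreement was common on this platform: of 156 transcripts with several spots of which at least 1 passed at 0.5 or more, 69 (44.2%) had another spot within 0.1 of 0. Which spots read the transcript was not tested, since probe sequences were not used here.

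**Figure D3:**
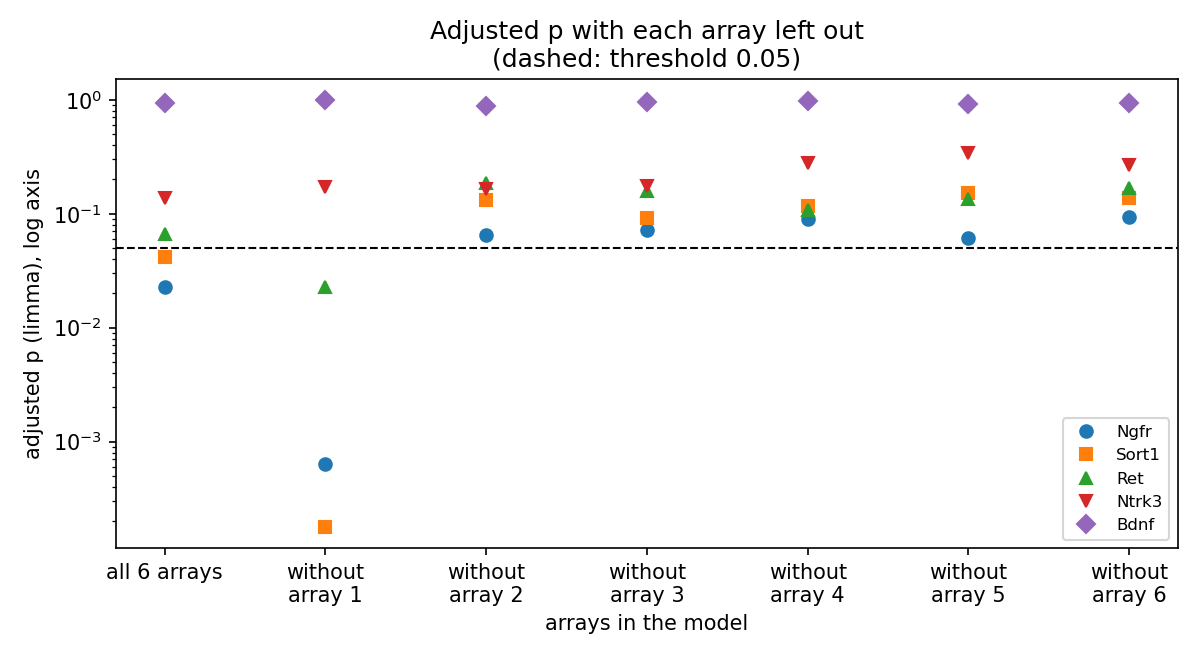
Adjusted p from limma on a log axis for 5 of the genes, with all 6 arrays and with each array left out in turn. Ngfr and Sort1 lie under the dashed threshold of 0.05 with all arrays and without array 1, Ret only without array 1, and Ntrk3 and Bdnf lie above it throughout.

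The profiles of Ngfr and Sort1 over the 6 arrays were set against those of 17553 other named genes. For Ngfr, the highest correlations belonged to Faap100, Ccdc38 and Cd9 (Pearson's r of 0.990, 0.987 and 0.985 over 6 arrays). For Sort1 they belonged to Foxh1, Trappc6b and Gramd4 (0.999, 0.999 and 0.996). In all 6 of these genes array 1 was the lowest array, as it was in the gene means of Ngfr and Sort1. None of the 6 passed the threshold themselves, with adjusted p-values between 0.104 and 0.593 in limma. These correlations are a description over arrays that share a platform and, for the most part, a low array 1.

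The neighbouring genes of the pathway were taken as 5 lists with 102 measured genes that are not among the 8. Of these, 7 rose and 10 fell, or 16.7%, beside 15.0% of all genes, so the share called was near that of the whole array. With single arrays left out the number called lay between 5 (without array 5 or 6) and 31 (without array 1). The share of all genes called moved alike, as 31 pathway genes are 30.4% where 25.9% of all genes were called, and 5 are 4.90% where 5.87% or 6.38% of all genes were. Without array 2, 3 or 4, 9.51%, 10.6% and 8.21% of all genes were called, beside 7.84%, 6.86% and 6.86% of the pathway genes. The lists differed in which members moved. Of 15 other ligands and receptors of these families, 0 rose in limma (1 at an unadjusted p under 0.05) and 1 fell, Gas1, a relative of the Gdnf co-receptors that binds Ret (-0.12 ± 0.07, SD, n = 6, adjusted p = 0.0188). Without array 3, 4, 5 or 6, 0 genes fell (1 at an unadjusted p under 0.05). The co-receptor genes Gfra1 to Gfra4 had means of 0.018, 0.05, 0.0065 and 0.029 and were not called. The list median was 0.0093.

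Of 15 genes that process or sort neurotrophin precursors, 2 rose and 1 fell, beside 5.88% and 9.11% of all genes. Hap1, a carrier protein in the transport of Bdnf vesicles, lay at -0.013, 0.59, 0.53, 0.44, 0.41 and 0.29 on arrays 1 to 6, close to 0 on array 1 and high on the others. Its mean was 0.37 ± 0.22 (SD, n = 6, adjusted p = 0.0247). Furin, a protease that cleaves neurotrophin precursors, was at 0.23 ± 0.17 (adjusted p = 0.0498), with spots at 0.41 and 0.05 that did not pass by themselves. Htt, the partner of Hap1, fell by 0.17 ± 0.08 (adjusted p = 0.00598), with 1 spot at -0.34 and the other at 0.0037. Without any 1 of arrays 2 to 6, 0 genes of this list rose in limma (2 or 3 at an unadjusted p under 0.05) and 1 fell. The calls of Hap1 and Furin were lost each time, in runs where 5.87% to 10.6% of all genes were called. The list median was 0.023.

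Of 31 adaptors and signalling proteins that act at Trk, Ret or p75, 4 rose and 3 fell, beside 5.88% and 9.11% of all genes. Grb2, the adaptor that links receptor kinases to Ras, lay near 0.42 on both of its spots, with a mean of 0.42 ± 0.30 (SD, n = 6, adjusted p = 0.0315), although array 1 was at -0.18 and -0.22 on them. Ptpn11, a phosphatase needed for Ras signalling, was at 0.39 ± 0.22 (adjusted p = 0.0179). Its 2 spots for 1 transcript stood at 0.63 and 0.52, and its remaining spot at 0.025. Bex1, a small protein described as a binding partner of p75, was at 0.44 ± 0.22 (adjusted p = 0.00345). Sos2, an exchange factor for Ras, fell by 0.22 ± 0.14 (adjusted p = 0.0330). Without array 1 the list had 9 higher and 4 lower genes, where 25.9% of all genes were called. Without array 2 or 4 it had 1 higher and 1 lower, and without array 3, 5 or 6 it had 1 higher and 0 lower in limma (4, 4 and 3 lower at an unadjusted p under 0.05). In these runs without 1 of arrays 2 to 6, 5.87% to 10.6% of all genes were called. The list median with all arrays was 0.0078.

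Of 19 genes listed as induced by neurotrophin signalling, 4 fell and 1 rose, beside 9.11% and 5.88% of all genes. Egr1, an immediate-early transcription factor, lay at -0.72, -0.47, -0.88, -0.14, -0.47 and -0.71 on arrays 1 to 6, below 0 on all of them and least so on array 4. Its mean was -0.57 ± 0.26 (SD, n = 6), 67.5% of the scrambled signal, with an adjusted p of 0.00679. Nr4a2, a nuclear receptor gene, fell by 0.28 ± 0.07 (adjusted p = 0.00290), with spots at -0.46 and -0.10. Creb1, whose product acts downstream of Trk receptors, fell by 0.16 ± 0.07 (adjusted p = 0.0161), with spots at -0.20, 0.06 and -0.32. It is counted among the 4, although that role is not an induction of its transcript. Arc, a synaptic immediate-early gene, rose (0.16 ± 0.10, adjusted p = 0.0198). Such genes also answer to many other signals. Without array 1 the list had 4 lower and 4 higher genes, where 25.9% of all genes were called. Without array 5 or 6 it had 2 lower and 0 higher in limma (3 higher at an unadjusted p under 0.05), without array 4 it had 3 lower and 0 higher (4 unadjusted), and without array 2 or 3 it had 2 or 3 lower and 1 higher. In these runs without 1 of arrays 2 to 6, 5.87% to 10.6% of all genes were called. The list median with all arrays was 0.0019.

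Of 22 other trophic ligands and receptors of neurons, 1 fell, beside 9.11% of all genes. In limma 0 rose (4 higher at an unadjusted p under 0.05), beside 5.88% of all genes. The gene that fell was Ptn, which encodes the secreted growth factor pleiotrophin. It lay at -0.64, -0.25, -0.34, -0.52, -0.42 and -0.56 on arrays 1 to 6, below 0 on all of them. The mean was -0.45 ± 0.14 (SD, n = 6), 73.1% of the scrambled signal, with an adjusted p of 0.00315. Without array 1, 3 genes of this list were higher and 2 lower, where 25.9% of all genes were called. Without any other single array 1 was lower, where 5.87% to 10.6% of all genes were called. The list median with all arrays was 0.021.

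**Figure D4:**
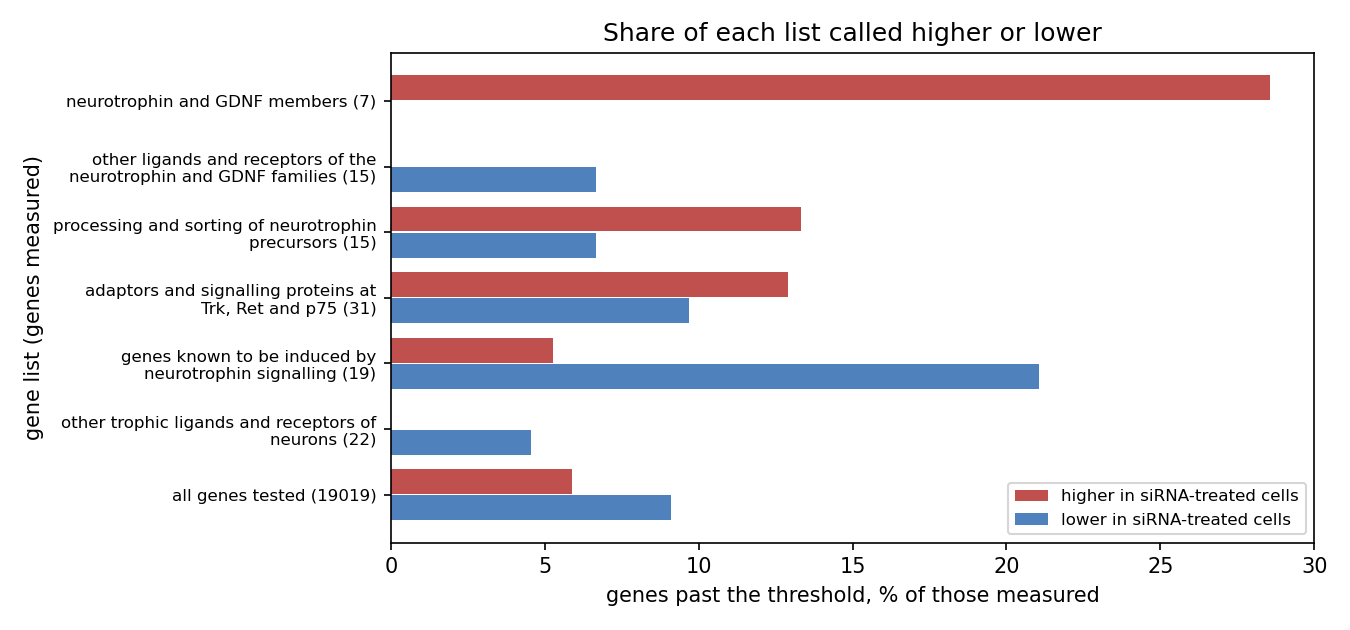
Share of the measured genes of each list that passed the threshold, in percent, higher in red and lower in blue, with the number of measured genes in brackets and all 19019 genes as the bottom row. The list with 19 genes named as induced by neurotrophin signalling has 4 lower and 1 higher, and the 7 neurotrophin and GDNF genes have 2 higher and 0 lower.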

How the data were processed

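The deposited values are per-array log2 ratios of siRNA over scrambled signal that the authors had normalized. The log base was inferred. How images were read, corrected and normalized is not given in the sources used here. Named genes correlated positively between dye orientations, so signs were left as deposited. Whether the 6 arrays came from separate transfections is not stated, so p-values cover only the spread among these arrays, which may be technical.

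Spots were named through the platform annotation (32042 with 1 gene, 47 with several, 12201 not listed), with symbols updated to GRCm38.p6. The 31866 spots with 1 gene and a value on all 6 arrays were averaged per gene. R 4.3.3 with limma 3.58.1 (lmFit, eBayes, and statmod 1.5.0 for robust eBayes) fitted the mean ratio with a dye term, with 4 residual degrees of freedom. SDs are over arrays and include any dye difference. In simulated data with 19019 genes, a small part of the genes was given a change of 0.25, 0.5 or 1 on the log2 scale. Of the genes given each size of change, 62.7%, 91.0% and 100% were recovered. The simulated noise was independent between arrays and genes, so it held no array that stood apart over all genes, as array 1 did.

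The genes and lists were chosen with earlier results of these data known. Named from each list were up to 4 genes past the threshold with the largest change, or the gene with the smallest p. Gfra1 to Gfra4 and the sympathetic identity genes that were not called were named after their values were seen. For each called gene, the 3 genes with the highest correlation were named. Alternatives left out single arrays, the dye term or the moderation, used 1 dye orientation, other spot summaries, quantile or scale normalization, robust eBayes, or genes with at least 4 values. Only ratios were used here, and the precision rests on the 6 arrays.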

Additional observations from a re-analysis of the deposited data

Results flagged for a closer look

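The first spot of Ngfr was -0.108 on array 1, whereas arrays 2 to 6 gave 0.31 to 0.47. The array 1 value lay farther from its neighbours than a test for a single outlying value allows. It was the 1 such case among 22 sets of values tested (14 spots, 7 genes and Rest), and chance gives about 1 in 20. The gene mean of Rest was also nearest to 0 on array 1, at -0.16. Its spots there read 0.24, -0.23 and -0.48, and the last of these was equal to its value on array 2. Whether array 1 and this spot share a cause was not tested.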

How the results depend on the processing

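Bdnf, Gdnf and Ntrk2 were not called under any alternative run. Leaving out single arrays moved the number of higher genes among the 7 between 0 and 3, that of called spots among the 14 between 0 and 3, and that of called pathway genes between 5 and 31, with 3 higher genes at an unadjusted p under 0.05 in limma each time. The share of all genes called moved between 5.87% and 25.9% in these runs. The means then ranged from 0.16 to 0.22 for Ngfr, 0.15 to 0.25 for Sort1 and 0.076 to 0.12 for Ret. On the 3 Cy5 arrays alone Rest was at -0.28 (adjusted p = 0.205), Ngfr at 0.13 (0.486) and Sort1 at 0.19 (0.467), with 0 higher genes (1 unadjusted), 0 spots (2 unadjusted) and 0 pathway genes (15 unadjusted). On the 3 Cy3 arrays alone Ntrk3 was at -0.15 (0.00825), the 1 lower gene. Fewer arrays enter these models. For them, and for the run without moderation given next, the share of all genes called is not given here. Their counts can therefore not be told apart from fewer calls over the whole array. Without moderation Ngfr (0.19, adjusted p = 0.104) and Sort1 (0.20, 0.156) were not called, with 0 higher genes (3 unadjusted), 0 spots (4 unadjusted) and 4 pathway genes (25 unadjusted). With the median over spots Sort1 turned to -0.0028 (0.978), and with the first spot to -0.0505 (0.623), each leaving 1 higher gene. With the first spot Rest was at -0.054 (0.742). These follow from which spots are used. The other causes were not tested. Each ratio is itself a paired comparison of siRNA and scrambled RNA on 1 array, and no further pairing between arrays was made. Signal over background could not be judged from ratios.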
